A study of Rattus norvegicus with 40 samples.

Results

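Soleus muscle RNA of 5 heterozygous Tti2+/- rats was compared with that of 5 wild-type littermates, which are 10 of the 40 tissue samples of the study. The members were the samples labelled as soleus muscle, with the genotype and the number of the rat as their labels give them. All rats had the SHR/OlaIpcv background, an inbred spontaneously hypertensive strain, and no treatment was named. The Tti2+/- rats carried 1 intact copy of Tti2 and 1 copy with a short frameshift deletion made by zinc finger nuclease in the first exon. The deletion was present in all cells and not only in muscle, and the rats came from 1 edited line. The age at which the RNA was taken is not given in the sources used here. Rat numbers 2 to 6 occurred in both genotypes and stood for different animals, so that each sample was a separate rat.

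Tti2 acts with Tti1 and Telo2 as a co-chaperone, without which the large PI3K-related kinases are unstable. These kinases include mTOR, which couples nutrients and insulin to growth, and ATM, ATR and DNA-PKcs, which respond to DNA damage. The soleus is a postural muscle of the lower leg, rich in slow oxidative fibres, and takes up glucose in response to insulin. The comparison asked which transcripts of this muscle differed when 1 copy of Tti2 was lost.

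Transcripts were identified only by their Ensembl transcript IDs. The tables did not pair IDs with gene names, and the gene table at hand matched none of them, so the level of Tti2 itself could not be read and no gene is named. Nor could the label of the tissue be checked against known muscle markers. There were 192 soleus-restricted transcripts, defined by a mean of at least 50 CPM (counts scaled to library size by edgeR's TMM method) in soleus that was at least 100 times the median in each of the other 3 tissues. By this choice their share was high in soleus and low elsewhere. They held 34.0% to 40.2% of the estimated counts in every soleus sample. In the other tissues their share was at most 0.0085% in liver, 0.146% in fat and 0.0547% in hippocampus. The soleus libraries held between 23384741 and 27426073 estimated counts, and the totals of the genotypes overlapped (two-sided exact permutation test, p = 0.73). Between 17501 and 18437 transcripts had 5 or more counts in a sample.

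Soleus RNA was concentrated in few transcripts. The 10 transcripts with the highest mean TPM (a level corrected for transcript length and library size) made up 30.3% of all TPM over the 10 samples, and the 100 highest made up 67.5%. Of these 100 transcripts, 36 were soleus-restricted. The soleus-restricted transcripts had a median level of 136 TPM, against 3.32 TPM over all transcripts tested.

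Few transcripts passed a test for a difference between Tti2+/- and wild-type soleus, and how many depended on the test. By edgeR's test it was a single transcript, lower in Tti2+/- rats, and by DESeq2's test 40, of which 22 were higher and 18 lower. Of 31715 transcripts in the tables, 18007 reached 5 estimated counts in 5 or more of the 10 soleus samples and were tested. By edgeR's quasi-likelihood test, 1 transcript, or 0.00555% of those tested, passed a Benjamini-Hochberg adjusted p under 0.1 with a fold change of at least 1.5, and it was lower in Tti2+/- rats. An unadjusted p under 0.05 was reached by 1234 transcripts (6.85%), of which 664 (3.69%) were higher and 570 (3.17%) were lower in Tti2+/- rats. All 5 Tti2+/- rats lay outside the range of the 5 wild-type rats for 235 transcripts (1.31%), 144 (0.8%) above it and 91 (0.505%) below it.

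The transcript that fell was ENSRNOT00000032467.4, of 1923 bases. In wild-type rats 2 to 6 its level was 18.3, 18.0, 18.6, 15.3 and 16.6 CPM. In Tti2+/- rats 2 to 6 it was 8.87, 9.13, 9.92, 9.72 and 8.67 CPM. The genotypes were far apart, since the lowest wild-type rat lay above the highest Tti2+/- rat by more than the whole range within either group. The means were 17.4 ± 1.40 CPM in wild-type and 9.26 ± 0.539 CPM in Tti2+/- rats (SD, n = 5 per genotype), a log2 fold change of -0.90 with a standard error of 0.072. The edgeR quasi-likelihood test gave an adjusted p of 0.0018.

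The same transcript was present in every tissue, with a median of 7.33 TPM in soleus, 5.45 TPM in liver, 8.10 TPM in fat and 10.2 TPM in hippocampus. The mean fell from 13.0 ± 2.15 to 7.61 ± 0.644 CPM in liver and from 16.9 ± 1.01 to 9.68 ± 0.797 CPM in hippocampus (SD, n = 5), where edgeR's adjusted p was 0.037 and 0.013. In fat it was 15.7 ± 1.18 CPM in wild-type and 9.96 ± 1.08 CPM in Tti2+/- rats, which did not pass the test over all fat transcripts (edgeR adjusted p = 0.337). In none of the 3 tissues did the ranges of the genotypes overlap. The interaction test of the genotype effect in soleus passed against none of them, with a difference from liver of -0.14 (SE 0.139) in log2 fold change, from fat of -0.24 (SE 0.113) and from hippocampus of -0.09 (SE 0.101), and edgeR adjusted p-values of 0.836, 0.761 and 0.894. Several of these samples came from the same rats. The study reported lower Tti2 mRNA in Tti2+/- rats in soleus, liver, fat and hippocampus. Whether ENSRNOT00000032467.4 is a transcript of Tti2 could not be read from its ID and was not tested.

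The lower transcript with the next smallest p-value was ENSRNOT00000015109.2, of 1948 bases. Wild-type rats 2 to 6 had 48.6, 66.0, 61.3, 48.1 and 52.2 CPM. Tti2+/- rats 2 to 6 had 27.8, 29.2, 22.3, 29.8 and 35.1 CPM. The genotypes did not overlap, and the mean was 55.3 ± 7.99 CPM in wild-type and 28.8 ± 4.57 CPM in Tti2+/- rats (SD, n = 5). The log2 fold change was -0.94 with a standard error of 0.126, and edgeR's adjusted p of 0.139 did not pass. It passed edgeR's test among transcripts with at least 10 counts in every sample (adjusted p = 0.061), without wild-type rat 2 (0.099) and without Tti2+/- rat 6 (0.092). Without any other single rat it did not pass (edgeR adjusted p = 0.171 to 0.406). This transcript was near the detection limit in the other tissues. Its level was 10.8 to 32.2 TPM in soleus, and at most 0.0697 TPM in liver, 0.214 TPM in fat and 0.153 TPM in hippocampus.

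The 2 transcripts with the smallest p-values among those higher in Tti2+/- rats did not pass edgeR's test over the 18007, while both passed it among the 14196 with at least 10 counts in every sample (adjusted p = 0.098 for each). ENSRNOT00000018057.5 had 8.69, 10.2, 7.99, 9.82 and 7.02 CPM in wild-type rats 2 to 6. The Tti2+/- rats 2 to 6 had 12.9, 13.7, 14.8, 14.1 and 15.7 CPM. The groups did not overlap, with a log2 fold change of 0.70, a standard error of 0.104 and an adjusted p of 0.151 by edgeR's test. This transcript was most abundant in fat, at 26.2 to 37.9 TPM, against 3.15 to 6.79 TPM in soleus, and its fat levels overlapped between the genotypes, at 53.0 to 63.8 CPM in wild-type and 51.5 to 75.5 CPM in Tti2+/- rats.

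ENSRNOT00000026871.4 had 5.10, 4.28, 3.82, 4.02 and 3.94 CPM in wild-type rats 2 to 6. Its levels in Tti2+/- rats 2 to 6 were 7.10, 8.15, 7.86, 5.92 and 7.46 CPM. Again the groups did not overlap, with a log2 fold change of 0.79, a standard error of 0.118 and an edgeR adjusted p of 0.151. The adjusted p was 0.099 without wild-type rat 2 and 0.175 to 0.486 without any other single rat. Its levels in liver, fat and hippocampus overlapped between the genotypes.

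**Figure D1:**
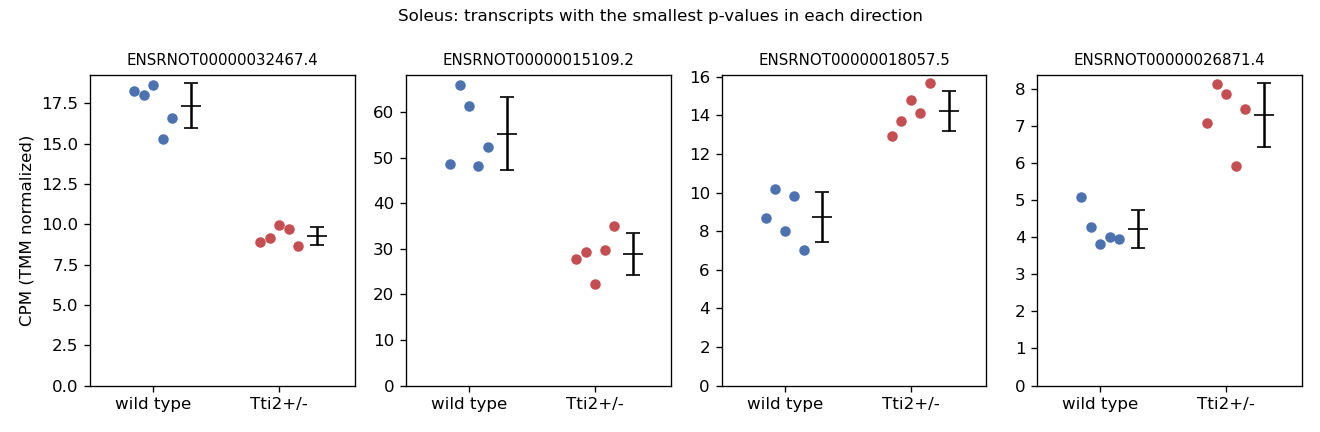
Levels in soleus of the 2 transcripts with the smallest p-values among those lower (left) and the 2 among those higher (right) in Tti2+/- rats. Each point is 1 rat in the order 2 to 6, the vertical axis is CPM from 0, and the bars are mean ± SD (n = 5). In all 4 panels the 5 Tti2+/- rats lie outside the wild-type range, and of the 4 transcripts only ENSRNOT00000032467.4 passed edgeR's test over the 18007, while all 4 passed DESeq2's.

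DESeq2's Wald test on the same 18007 transcripts called 40 (0.222%), 22 higher and 18 lower in Tti2+/- rats, all of which had an unadjusted p under 0.05 in edgeR. All 4 transcripts above were among them. With at least 10 counts required in every sample, edgeR called 5, which were these 4 and ENSRNOT00000016997.7 (log2 fold change 1.51, SE 0.219, edgeR adjusted p = 0.098). The 40 transcripts were mostly of low level, with a median of 5.88 CPM and 26 under 10 CPM, and their median absolute log2 fold change was 0.92. In 26 of them the genotypes did not overlap, against 1.31% of all transcripts tested. The 40 were chosen by a small p in these same samples, so this count follows in part from the choice. In 2 of the 40 a sample had 3 counts or fewer. Of the 40, 5 were soleus-restricted and 2 were fat-restricted. In the other tissues the effects of these transcripts went both ways. Of the 28 also tested in liver, 14 (50%) had the direction they had in soleus, against 51.3% of all transcripts tested in both tissues. The numbers were 24 of 36 (66.7%, against 54.5%) in fat and 18 of 33 (54.5%, against 50.7%) in hippocampus. Their median absolute log2 fold change was 0.25 in liver, 0.29 in fat and 0.22 in hippocampus, against 0.11, 0.09 and 0.09 over all transcripts tested in soleus and that tissue. An unadjusted p under 0.05 by edgeR was reached by 4 in the soleus direction and 3 in the opposite one in liver, by 4 and 2 in fat and by 2 and 1 in hippocampus.

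The size of change that could be seen depended on the level of the transcript. The median standard error of the log2 fold change was 0.48 for 3551 transcripts under 1 CPM, 0.20 for 7194 at 1 to 10 CPM, 0.08 for 6271 at 10 to 100 CPM and 0.07 for 991 at 100 CPM or more. A fold change of at least 1.5, with no test, was found for 1708 transcripts (9.49%), of which 1001 were under 1 CPM and 24 were at 100 CPM or more. Among the most abundant 991 transcripts an unadjusted p under 0.05 was reached by 107 (10.8%, against 6.85% over all transcripts tested), 77 higher and 30 lower, and 12 of the 991 had genotypes that did not overlap, near the 1.31% over all transcripts. Of the 191 soleus-restricted transcripts tested, 15 were higher and 11 lower at an unadjusted p under 0.05, beside 3.69% higher and 3.17% lower over all transcripts, and none was called by edgeR. Their median log2 fold change was 0.01, against -0.0041 over all transcripts tested.

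**Figure D2:**
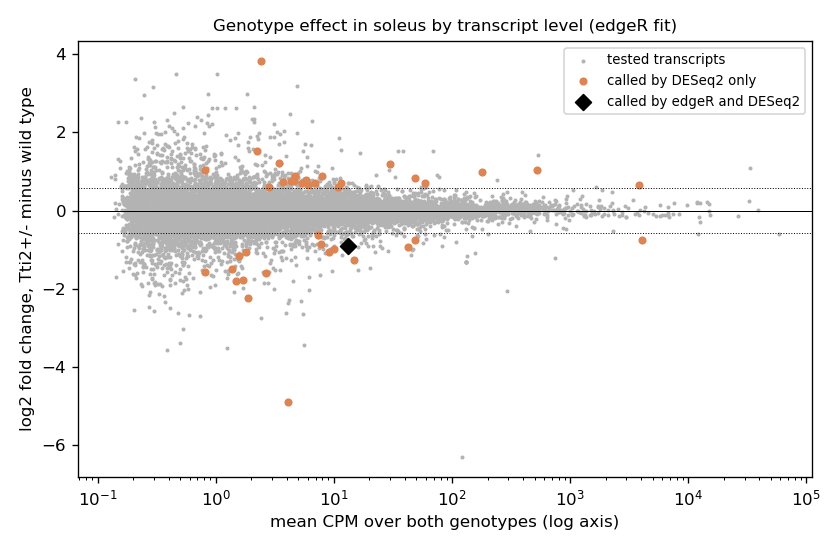
Log2 fold change in soleus (Tti2+/- minus wild type) of each of 18007 tested transcripts against its mean CPM on a log axis, from the edgeR fit. The diamond is the transcript called by edgeR and DESeq2, orange points are the 39 called by DESeq2 only, and dotted lines mark a fold change of 1.5, which low transcripts exceeded most often.

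The 24 transcripts at 100 CPM or more with a fold change of at least 1.5 showed which rats lay behind the larger differences. Of these, 8 were higher and 16 were lower in Tti2+/- rats, 13 were soleus-restricted, none was called by edgeR (smallest adjusted p = 0.593), and in none of them were the genotypes without overlap. An unadjusted p under 0.05 by edgeR was reached by 7 of the 8 and 7 of the 16, beside 10.8% of all 991 transcripts at this level. The 24 were chosen for their genotype difference in these same samples, so these counts follow in part from the choice. Tti2+/- rat 3 was the lowest Tti2+/- rat for 7 of the 8 higher transcripts, and wild-type rat 3 was the highest wild-type rat for 6.

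The most abundant of the 8 higher transcripts, at a mean of 7515 TPM and soleus-restricted, had 17701, 36002, 12845, 12095 and 27094 CPM in wild-type rats 2 to 6. Levels in Tti2+/- rats 2 to 6 were 49550, 22109, 55405, 55462 and 43314 CPM. Tti2+/- rats 2, 4, 5 and 6 lay above all wild-type rats, while Tti2+/- rat 3 lay within their range (log2 fold change 1.09, SE 0.340, edgeR adjusted p = 0.656).

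The most abundant of the 16 lower transcripts, at a mean of 13426 TPM and also soleus-restricted, showed the converse. It had 78200, 67727, 73743, 64462 and 67316 CPM in wild-type rats 2 to 6. The Tti2+/- rats 2 to 6 had 52881, 70047, 35625, 47283 and 26124 CPM. Again Tti2+/- rat 3 lay within the wild-type range and the other 4 lay outside it, here below (log2 fold change -0.60, SE 0.218, edgeR adjusted p = 0.675). Both transcripts were picked for their level after the values were seen.

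Of the 16 lower transcripts among the 24, 5 had the same CPM in every sample as at least 1 other of the 16. Their values are therefore not separate measurements. The largest fold change of the 24 belonged to a transcript at 281, 505 and 425 CPM in wild-type rats 2, 4 and 5 and at 8.3 CPM or less in the other 7 rats of both genotypes (edgeR adjusted p = 0.656).

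The main axes of variation did not separate the genotypes. In a principal component analysis of log2 CPM over the tested transcripts, the first 4 components held 15.7%, 13.2%, 12.3% and 10.5% of the variance, close to the mean of 11.1% over the 9 possible components. On the first component the wild-type rats 2 to 6 scored -41.5, 32.3, -40.4, -57.1 and 2.44. The Tti2+/- rats 2 to 6 scored 19.97, -27.7, 36.7, 47.2 and 28.1. Wild-type rats 2, 4 and 5 and Tti2+/- rat 3 thus formed one end, and wild-type rat 3 lay among the Tti2+/- rats. The difference between the genotypes did not pass a two-sided exact permutation test (p = 0.071). Without wild-type rat 3 the exact p was 0.032, and without Tti2+/- rat 3 it was 0.04, so that the result rested on these rats. Exact p-values for components 2, 3 and 4 were 0.9, 0.13 and 0.49.

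The second component was an axis of the wild-type rats. Rats 4 and 2 scored 54.5 and 36.1 on it, rats 5 and 6 scored -48.8 and -62.1, and rat 3 scored 14.4. The Tti2+/- rats stayed between -9.19 and 16.3. The SD of the scores was 51.7 in wild-type and 9.69 in Tti2+/- rats. Component 4 was set by Tti2+/- rats 2 and 5, at 72.1 and -39.9, and component 3 by Tti2+/- rat 6, at 64.5, opposite to wild-type rats 3 and 6, at -44.6 and -42.1.

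These components were carried mainly by transcripts near the detection limit. The 2446 transcripts with 3 counts or fewer in at least 1 sample were 13.6% of those tested and held 71.0% of the squared loadings of the first component and 71.8% of the second. The 9255 transcripts with at least 100 counts in every sample, 51.4% of those tested, held 8.16% and 6.3%. The components were therefore computed again over these 9255 abundant transcripts, a choice made after the data were seen.

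Among abundant transcripts single rats stood out. The first component held 28.3% of the variance, and wild-type rat 5 scored -24.15 on it, while the other 9 rats lay between -8.23 and 12.3. The second held 18.9%, with Tti2+/- rat 6 at 20.3 and the others between -9.3 and 7.71. The third held 15.9%, with wild-type rat 6 at -19.96 and the others between -4.03 and 10.9. The scores of none of the 3 passed an exact permutation test against genotype (p = 0.14, 0.13 and 0.83). Genotype accounted for 16.0% of the sum of squares of the abundant transcripts and for 12.5% over all transcripts tested, where 1 of 9 degrees of freedom alone would give 11.1%.

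**Figure D3:**
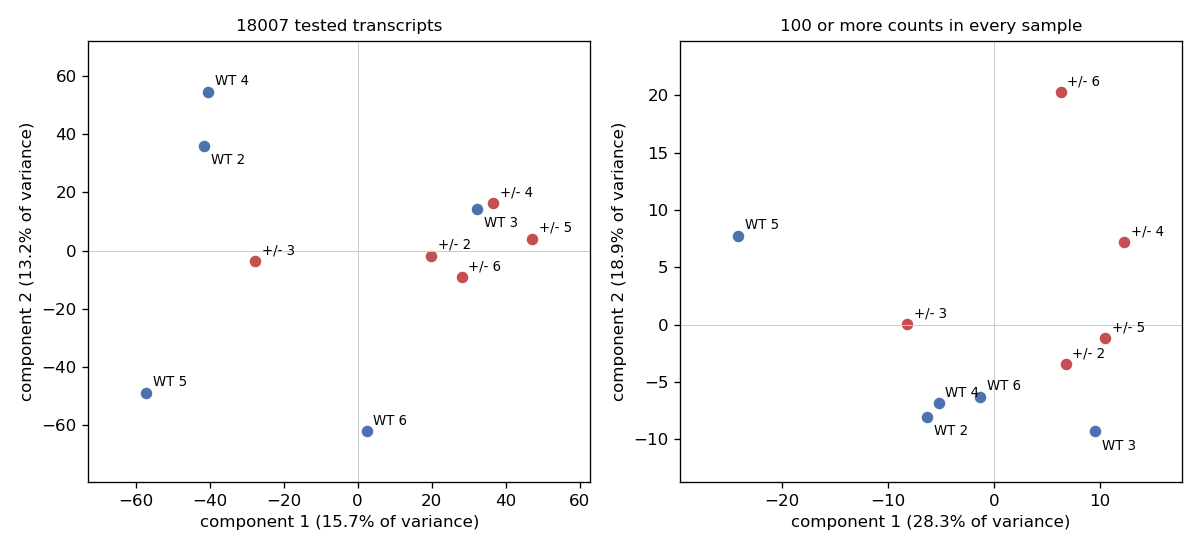
Scores of the 10 soleus samples on the first 2 principal components of log2 CPM, over the 18007 tested transcripts (left) and over the 9255 with at least 100 counts in every sample (right). Each point is 1 rat with its number, blue for wild type (WT) and red for Tti2+/- (+/-). Wild-type rats spread along component 2 on the left, and wild-type rat 5 and Tti2+/- rat 6 stand apart on the right.

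The same 3 rats most often had the lowest level of the 10 samples. Wild-type rat 5 had the lowest level of 22.5% and the highest of 13.1% of the 9255 abundant transcripts, and Tti2+/- rat 6 the lowest of 13.9% and the highest of 13.7%. Wild-type rat 6 had the lowest of 13.7% and the highest of 8.76%. Each of the other 7 rats had the lowest of 6.04% to 8.88% and the highest of 6.54% to 12.2%, so that wild-type rat 6 stood apart only at the low end. The low end was more uneven in the 187 soleus-restricted transcripts among them, of which 62 were lowest in Tti2+/- rat 6, 53 in wild-type rat 5 and 38 in wild-type rat 6. Of the 187, 38 were highest in wild-type rat 2 and 28 in Tti2+/- rat 6. Together the soleus-restricted transcripts held 34.0% of the counts of Tti2+/- rat 6 and 37.1% of those of wild-type rat 5, against 37.6% to 40.2% in the other 8 rats. The difference in this share between the genotypes did not pass (39.0% ± 1.30 in wild-type and 37.8% ± 2.29 in Tti2+/- rats, SD, n = 5, exact permutation p = 0.41).

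**Figure D4:**
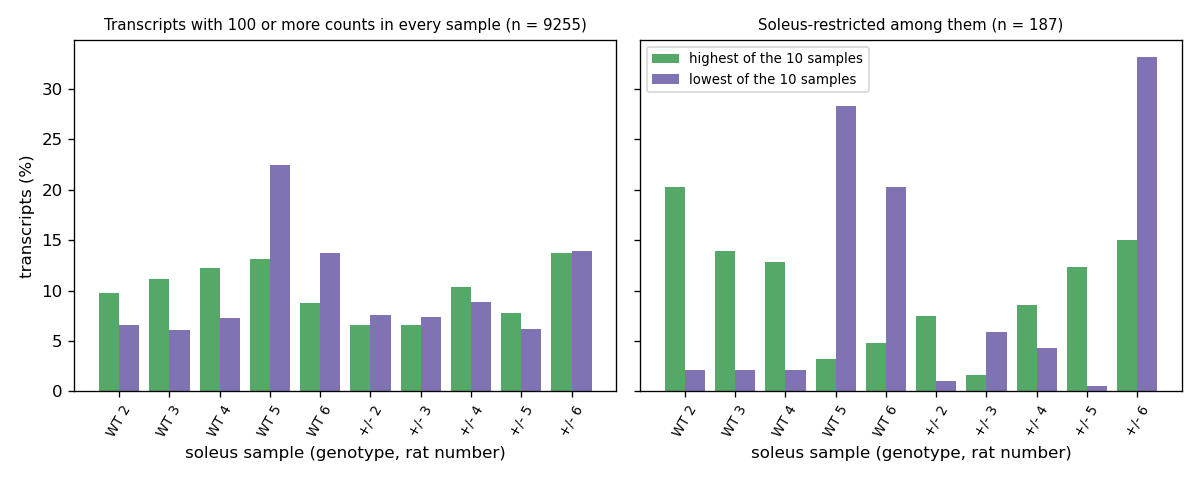
Percentage of transcripts for which each soleus sample was the highest (green) or the lowest (purple) of the 10, over 9255 transcripts with at least 100 counts in every sample (left) and the 187 soleus-restricted ones among them (right). Bars start at 0. Tti2+/- rat 6 and wild-type rats 5 and 6 hold the tallest bars for the lowest level in both panels.

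The abundant transcript that varied most between rats was ENSRNOT00000024186.3, of 5923 bases, chosen after its values were seen. It had 349.5, 11.7, 386.0, 969 and 9.88 TPM in wild-type rats 2 to 6. In Tti2+/- rats 2 to 6 it had 64.6, 518, 375, 177 and 1241 TPM. It was lowest in wild-type rats 3 and 6 and highest in wild-type rat 5 and Tti2+/- rat 6, so that high and low rats occurred in wild type and the genotypes overlapped. On the CPM scale the highest rat was 132 times the lowest, and the SD of its log2 CPM was 2.46, against a median SD of 0.14 over abundant transcripts. The difference between the genotypes did not pass (edgeR log2 fold change 0.52, SE 1.11, adjusted p = 0.944). It was soleus-restricted, with a mean of 0.0161 TPM in liver, 0.0361 TPM in fat and 1.02 TPM in hippocampus.

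Counting this transcript, 18 abundant transcripts followed it with a correlation of at least 0.9 across the 10 samples. Of the 18, 6 were soleus-restricted and none was fat-restricted, and none reached an unadjusted p under 0.05 for genotype. Their summed level in wild-type rats 2 to 6 was 2743, 1114, 2924, 5247 and 1006 TPM. In Tti2+/- rats 2 to 6 it was 1321, 3277, 2952, 1697 and 6532 TPM. The order of the rats largely repeats that of the leading transcript, as follows from how the 18 were chosen, and the difference of the sum between the genotypes did not pass (exact permutation p = 0.6).

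Transcripts abundant in fat and low in soleus differed between the soleus samples. The 53 fat-restricted transcripts had a mean of at least 50 CPM in fat that was at least 100 times the soleus median. They were set against soleus only and were not particular to fat. They held 4.37% to 6.12% of the counts in fat, 1.25% to 1.42% in liver and 0.256% to 0.281% in hippocampus. Their share in wild-type soleus samples 2 to 6 was 0.0116%, 0.00805%, 0.0142%, 0.0307% and 0.0263%. In Tti2+/- samples 2 to 6 it was 0.0118%, 0.0106%, 0.0052%, 0.00484% and 0.00796%. Wild-type rats 5 and 6 were the highest, and the other 3 wild-type rats lay within or just above the range of the Tti2+/- rats. The mean share was 0.0182% ± 0.00981 in wild-type and 0.00808% ± 0.00313 in Tti2+/- rats (SD, n = 5), and the difference did not pass an exact permutation test (p = 0.056). Leaving out 1 rat at a time gave exact p-values of 0.016 to 0.13.

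Of the 53, 39 were tested, and 17 were lower and none higher in Tti2+/- rats at an unadjusted p under 0.05, beside 3.17% lower over all transcripts. The median log2 fold change of the 39 was -1.02, and none was called by edgeR. None had a fitted log2 fold change above 0, beside 49% of all transcripts tested. Wild-type rat 5 was the highest sample for 26 of the 39 and wild-type rat 6 for 12. The 39 thus varied together, and their counts are not separate evidence on genotype. Their mean levels were 0.273 to 19.4 CPM. The filter asked for 5 counts in 5 of the 10 samples, so low transcripts could enter through the wild-type samples alone. On the scale of mean log2 CPM, 37 of the 39 were lower in Tti2+/- rats with a median difference of -0.92, and without wild-type rats 5 and 6, 29 were lower with a median of -0.35. The log2 share then differed by -0.54 (exact permutation p = 0.23, 3 against 5 rats). In bulk tissue, more cells of a kind and more RNA per cell cannot be told apart. The part of the fat-restricted transcripts in the other results was not tested beyond a fit with the log2 of their share as a covariate. In that fit ENSRNOT00000032467.4 remained the 1 call by edgeR (log2 fold change -1.04, SE 0.070, adjusted p = 0.0013). Liver-restricted and hippocampus-restricted transcripts were also set against soleus only, by the same rule. They held 0.0238% to 0.0543% and 0.00905% to 0.0209% of the soleus counts, and their median log2 fold changes were -0.12 over 135 and 0.09 over 153 tested. Wild-type rats 5 and 6 also had the highest liver-restricted shares (0.0543% and 0.0435%), and wild-type rat 5 had the highest hippocampus-restricted share (0.0209%). At an unadjusted p under 0.05 by edgeR, 10 of the 135 were lower and 0 higher, and 2 of the 153 were lower and 3 higher, beside 3.17% lower and 3.69% higher over all transcripts.

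**Figure D5:**
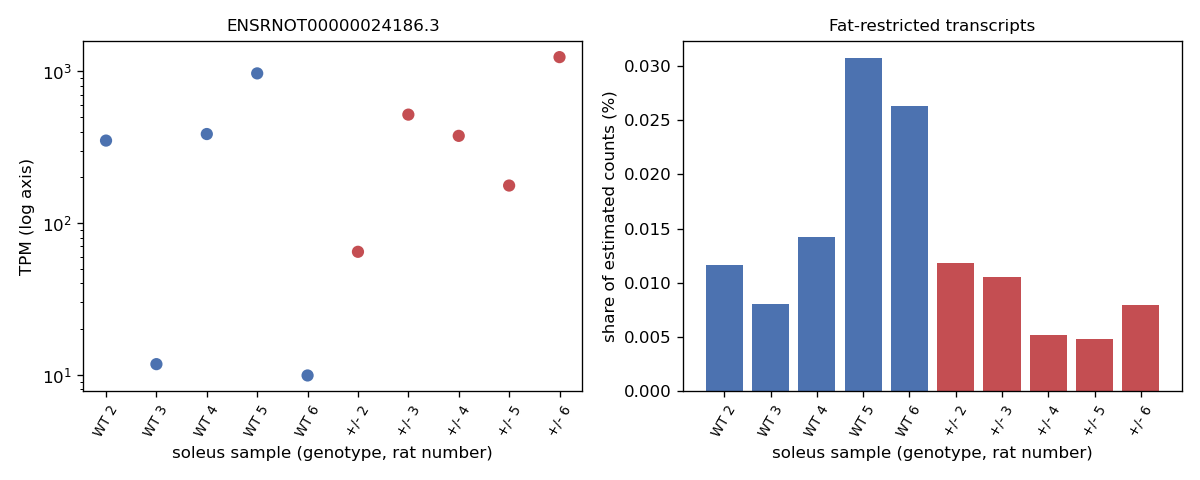
Left, level of ENSRNOT00000024186.3 in TPM on a log axis in each soleus sample. Right, share of the estimated counts of each sample in 53 fat-restricted transcripts, with bars from 0. Samples are named by genotype (WT, wild type; +/-, Tti2+/-) and rat number. On the left the highest are Tti2+/- rat 6 and wild-type rat 5, and on the right wild-type rats 5 and 6.

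Measures of each library were set beside the first 2 components of all tested transcripts, in 12 relations over 10 samples. Scores on the first component were lower where the fat-restricted share was higher, with a Pearson r of -0.64 (permutation p = 0.0431, adjusted p = 0.0863) and a Spearman rho of -0.83 (permutation p = 0.00471, adjusted p = 0.0283). Without the 2 samples with the most extreme share, r was -0.83. The liver-restricted share had a similar relation to the first component, with r of -0.63 (permutation p = 0.0431, adjusted p = 0.0863) and rho of -0.71 (permutation p = 0.0263, adjusted p = 0.0788). Neither share was independent of the scores, since its tested transcripts were among those that gave the component. Scores on the second component were lower where more transcripts had 5 or more counts, with r of -0.83 (permutation p = 0.00218, adjusted p = 0.0262) and rho of -0.83 (permutation p = 0.00463, adjusted p = 0.0283). Without the 2 most extreme samples r was -0.68. The number of detected transcripts and the scores on the second component were not independent either. Transcripts with 3 counts or fewer in a sample held 71.8% of the squared loadings of this component, so its scores partly record which transcripts were detected. An adjusted permutation p under 0.05 was reached only by the fat-restricted share with the first component, for rho, and by the detected transcripts with the second. The share of the 10 highest transcripts had a rho of 0.73 with the first component (permutation p = 0.0206, adjusted p = 0.0788). Its r was 0.51 (permutation p = 0.139, adjusted p = 0.238). For the total count r was -0.33 and -0.29 (permutation p = 0.367 and 0.426).

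The deviation of a rat from its group in soleus was at most weakly correlated with its deviation in other tissues. Deviations from the genotype mean were compared across transcripts with at least 100 counts in every sample of both tissues, over 8 rats for each other tissue. Across 7426 transcripts shared with liver, the correlation with the liver of the same rat was between -0.03 and 0.11, and it was the highest among the rats of that genotype for 5 of 8 rats. Across 8514 transcripts shared with fat it lay between -0.0012 and 0.12 and was the highest for 4 of 8. Across 8216 shared with hippocampus it lay between -0.03 and 0.06 and was the highest for 2 of 8. By chance the same rat would be the highest as often as any other of the 5 rats of its genotype, and these counts were not tested.

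The genotype effect in soleus was tested against that in each other tissue by the interaction of genotype and tissue. At an edgeR adjusted p under 0.1 it differed from that in liver for 14 of 16105 transcripts (0.0869%), 7 with a more positive and 7 with a more negative effect in soleus. Most rats gave both tissues, and with each rat as a block 1 of the 14 still passed, ENSRNOT00000028546.5, with a more negative effect in soleus (difference of log2 fold changes -1.75, SE 0.133, adjusted p = 0.0094). This transcript was not lowered in Tti2+/- soleus, where its log2 fold change was 0.70 (SE 0.155, edgeR adjusted p = 0.466). The negative difference thus stands for a smaller rise in soleus than in liver. Without the block, the count ranged from 2 without the soleus of Tti2+/- rat 4 to 61 without that of Tti2+/- rat 3. It was 6 without the soleus of wild-type rat 2 or Tti2+/- rat 6, 27 without that of wild-type rat 3 and 28 without that of wild-type rat 6. Without 1 liver sample it was 7 to 26, with 7 without wild-type rat 2 or 4 or Tti2+/- rat 6, 9 without Tti2+/- rat 5, 23 without Tti2+/- rat 1 and 26 without wild-type rat 6.

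Against hippocampus the effect differed for 2 of 17022 (0.0117%), which were ENSRNOT00000018057.5 (difference of log2 fold changes 1.37, SE 0.222, edgeR adjusted p = 0.062) and ENSRNOT00000026871.4 (1.01, SE 0.164, adjusted p = 0.062). Neither passed with each rat as a block (1.28, SE 0.276, and 0.99, SE 0.199, edgeR adjusted p = 0.877 for each), and the 1 transcript then called was another, ENSRNOT00000014770.7, more negative in soleus (-0.78, SE 0.074, adjusted p = 0.077). Both had been chosen for their soleus values, so that these tests are not independent of that choice. In hippocampus ENSRNOT00000018057.5 had 7.59 CPM in wild-type rat 2 and 3.90 to 4.45 CPM in the other wild-type rats, above the 2.51 to 3.56 CPM of the Tti2+/- rats and opposite to its order in soleus. The effect within hippocampus did not pass edgeR's test (log2 fold change -0.66, SE 0.199, adjusted p = 0.938). Without the hippocampus of wild-type rat 2 the difference between the tissues was 1.16 (SE 0.158, edgeR adjusted p = 0.016), and this transcript was then the 1 call. The count was 9 without the soleus of wild-type rat 6, 5 without that of wild-type rat 3, 1 without that of wild-type rat 2 and 0 without that of wild-type rat 4 or 5 or Tti2+/- rat 2, 3, 4 or 6. It was 1 without the hippocampus of wild-type rat 2 or 5 or Tti2+/- rat 4, and 0 without that of wild-type rat 3 or 6 or Tti2+/- rat 1, 2 or 5. The study left out 1 hippocampus sample as an outlier without naming it in the sources used here, and all 10 were used.

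For fat the effect differed for none of 17243 (0%), where 1116 reached an unadjusted p under 0.05 and the smallest edgeR adjusted p was 0.425. The count was 3 without the soleus of wild-type rat 4, 2 without that of wild-type rat 6 or Tti2+/- rat 3, and 1 without the fat of Tti2+/- rat 2 or 4.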

How the data were processed

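RNA of soleus, liver, fat and hippocampus was measured in 40 samples from 6 rats per genotype, with 5 samples per tissue and genotype. Per the labels, mRNA was pulled down by its poly(A) tail, and stranded libraries were read single-end. The authors estimated transcript abundance with kallisto 0.46.0, per the submitters' processing notes, against an Ensembl cDNA set. The deposited tables give an estimated count per transcript, which kallisto divides among transcripts that share reads, and its TPM, in which the authors' estimate is set against transcript length and library size. Levels of near-identical transcripts are therefore uncertain.

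Estimated counts were rounded to whole numbers after the filter (5 counts in 5 of 10 samples), normalized by TMM and tested with edgeR 4.0.16 in R 4.3.3 (quasi-likelihood F-test, genotype only), with calls at a Benjamini-Hochberg adjusted p under 0.1 and at least a 1.5-fold difference. The standard error is the log2 fold change divided by the root of F. TPM was used only for levels. Components used log2 CPM (prior count 1). DESeq2 1.42.0 and limma 3.58.1 were alternatives. Single values were compared over the 252 assignments of 10 samples, and correlations over 100000 permutations. Named transcripts were the 2 with the smallest p in each direction. The members and lists were chosen with earlier results of these data known. Scripts were tested on simulated data. Between replicates the chi-square per degree of freedom was at least 10.8, so each sample counted as 1 replicate. The labels give no batch. Counting error only is covered by the totals, and 3 counts was used as the floor.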

Additional observations from a re-analysis of the deposited data

Results flagged for a closer look

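Dixon's ratio, the gap of the most extreme sample over the range, was computed for 34 groups of 5 soleus values, and 3 were past the critical value of 0.71, where chance gives about 1.7. On the second component of the abundant transcripts, wild-type rat 5 scored 7.71, against -9.3 to -6.32 in the other wild-type rats. Tti2+/- rat 6 had 8 abundant transcripts at least 2-fold above all other 9 samples, against 0 in each of the other Tti2+/- rats, where any count above 0 would have passed. Wild-type rat 5 had 7 abundant transcripts at least 2-fold below all other samples, against 0 to 2 in the other wild-type rats.

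By the interaction test of edgeR, the genotype effect differed between soleus and liver for 14 transcripts and between soleus and hippocampus for 2. With each rat as a replicate block these counts were 1, which was among the 14, and 1, which was not among the 2.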

How the results depend on the processing

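The soleus call count was 1 with median-of-ratios size factors, limma, a filter of 1 count in any sample, an adjusted p under 0.05 and no fold-change limit, and also with 2 settings chosen after seeing the data, the filter applied after rounding and the fat-restricted share as a covariate. It was 40 with DESeq2 and 5 with at least 10 counts in every sample, all 5 also called by DESeq2. DESeq2 with that filter, chosen after seeing the data, gave 40. Leaving out 1 rat gave 1 to 5 calls: 5 without wild-type rat 2, 3 without Tti2+/- rat 3, and 2 without wild-type rat 3, wild-type rat 4 or Tti2+/- rat 6. In these fits 9 transcripts were called at least once, 7 in exactly 1 fit and 1, ENSRNOT00000032467.4, in all 10. No named transcript changed direction.

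With rat number as a replicate block, 0 transcripts were called by edgeR, 960 had an unadjusted p under 0.05, and ENSRNOT00000032467.4 had a log2 fold change of -0.90 (adjusted p = 0.235). The numbers do not pair the rats: deviations of same-numbered rats correlated between -0.31 and 0.06.

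The interaction with liver gave 16 transcripts with median-of-ratios size factors, 25 with at least 10 counts in every sample, 1 with each rat as a replicate block and 2 to 61 without 1 sample. With hippocampus the block gave 1, a different transcript from the 2 without it, and leaving out 1 sample gave 0 to 9. With fat leaving out 1 sample gave 0 to 3. The leave-one-out interaction fits were chosen after seeing the data. The genotype difference on the first component, 41.7 score units, kept its direction in all settings and was 34.1 to 58.1 without 1 rat. The causes of these shifts were not tested. Sums over the transcripts of a gene could not be run, since the tables hold no gene names. The median standard error was largest for transcripts under 1 CPM.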
